A study of Mus musculus with 36 samples.

Results

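The 37 genes described here belong to the unfolded protein and integrated stress responses and were taken as a set by gene symbol. They were chosen with earlier results of these data known, which may have favoured their shares of calls over those of all genes. They comprise 20 genes of the ATF4 arm (10 regulators and 10 genes of amino acid supply), 3 sensors of the endoplasmic reticulum and 14 genes of the XBP1 and ATF6 chaperone arm. All 37 symbols were found among the 53465 genes counted, and all 37 were among the 16988 genes that passed the filter on low counts. The genes were followed in RAW 264.7, a macrophage-like mouse cell line grown from a virus-induced tumour and labelled wild type, in 36 RNA sequencing libraries, 3 per group in 12 groups. The groups were lipopolysaccharide (LPS, a bacterial cell wall component) at 10 µg/mL with melatonin at 0.1, 1, 10, 100 or 1000 µM, LPS at 10 µg/mL alone, melatonin alone at the same 5 doses, and solvent. Melatonin was added 30 min before LPS where both were given, and cells were collected after 12 h of treatment. The series was set up to follow melatonin as an anti-inflammatory agent and its dependence on concentration.

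Secretory proteins fold in the endoplasmic reticulum, and unfolded protein there is sensed by PERK, IRE1 and ATF6. PERK, like the other kinases of the integrated stress response, phosphorylates the initiation factor eIF2, which slows translation in general while that of Atf4 mRNA goes up, and ATF4 then raises genes for making and importing amino acids. IRE1 splices Xbp1 mRNA and ATF6 is cut to an active fragment, and both products raise chaperones and degradation factors of the endoplasmic reticulum. In macrophages exposed to LPS, some of these branches are known for serving the secretory load and for feeding into cytokine production. Translation, splicing and protein cleavage are not measured by counts per gene, so the values below are mRNA levels.

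Totals were 4203313 to 7590271 counts per library, and a library with 0 counts of a gene may hold up to 3, or at most 0.714 CPM. CPM are counts per 1000000 counts, and all CPM below except this limit are also scaled for library composition. Of 10 macrophage markers, 9 had counts in every library, and Mertk, the exception, had 0 counts in 30 libraries. Markers of T, B, epithelial, fibroblast and endothelial cells, 17 in all, summed to at most 9.52 CPM in any library. Over 7337 genes other than the 37, libraries were compared by the correlation of their deviations from the mean of all libraries with the same LPS status. The library labelled 1 µM melatonin replicate 1 correlated at 0.33 and 0.31 with 1 mM melatonin replicates 1 and 2, and at -0.28 and -0.24 with the other 2 libraries of its own label. The library labelled 1 mM melatonin replicate 3 correlated at -0.16 with both other libraries of its label. Most counts of calls that rest on these 2 libraries are given with and without them. The counts for single genes over the LPS comparisons, for libraries that do not overlap and for the wider lists are given with them. Replicate 3 of LPS with 1 mM melatonin correlated at 0.29 and 0.33 with replicates 1 and 2, which correlated at 0.60 with each other. This replicate 3 had the lowest total of all libraries, 4203313 counts. It also had the highest scaling factor for library composition, 1.19, where the median was 1.01. The labels do not say whether replicates were separate cultures, so p-values measure the spread between libraries, which may be technical. In bulk RNA, fewer cells with a transcript and less transcript per cell cannot be told apart.

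The arms differed in how many of their promoter windows held some of the motifs searched. As the arms were drawn up by the factors known to act on their genes, this difference is in part built in. Windows of 250 bases before to 50 after the annotated start (RefSeq, GRCm38.p6) were at hand for 34 of the 37 genes, all but Atf6, Manf and Slc7a5, and were searched on both strands. The endoplasmic reticulum stress element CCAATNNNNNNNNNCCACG, read by ATF6 and XBP1 together with NF-Y, was found in 5 of 13 chaperone arm windows and in 0 of 19 ATF4 arm windows, against 0.119% of 32851 windows in the table. The core TGATGNAA of the element that ATF4 binds with C/EBP partners was found in 6 of 19 ATF4 arm windows and in 1 of 13 chaperone arm windows, that of Herpud1, against 3.97% of all windows. These matches are a description of letters, not of binding, and no window held both motifs. The unfolded protein response element core TGACGTGG was in none of the 34 windows, against 0.676% of all windows. The stretches below show the matches in capitals, with the 5 chaperone arm windows first. The endoplasmic reticulum stress element was found in no other of the 34 windows.
Hspa5 (chr2:34771995-34772073, plus strand): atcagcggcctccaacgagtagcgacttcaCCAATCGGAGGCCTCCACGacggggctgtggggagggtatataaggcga
Pdia6 (chr12:17266461-17266539, plus strand): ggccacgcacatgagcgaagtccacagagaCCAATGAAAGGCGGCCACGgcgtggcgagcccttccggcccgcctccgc
Dnajc3 (chr14:118937797-118937875, plus strand): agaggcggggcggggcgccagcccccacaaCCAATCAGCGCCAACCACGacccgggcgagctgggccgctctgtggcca
Creld2 (chr15:88819490-88819568, plus strand, motif on the other strand): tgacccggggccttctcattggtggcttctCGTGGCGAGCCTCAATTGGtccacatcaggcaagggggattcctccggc
Hsp90b1 (chr10:86705503-86705686, minus strand, 2 matches, the second on the other strand): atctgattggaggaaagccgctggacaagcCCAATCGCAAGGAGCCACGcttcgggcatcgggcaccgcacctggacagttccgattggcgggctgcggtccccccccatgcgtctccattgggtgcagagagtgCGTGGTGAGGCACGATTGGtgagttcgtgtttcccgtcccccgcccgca
Of the ATF4 arm, Asns, Atf3, Chac1, Nupr1, Pycr1 and Trib3 held the ATF4 core, and 4 of these are shown with Herpud1 of the chaperone arm for comparison.
Asns (chr6:7693195-7693262, minus strand): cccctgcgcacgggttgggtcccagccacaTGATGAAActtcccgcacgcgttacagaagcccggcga
Chac1 (chr2:119351019-119351086, plus strand, motif on the other strand): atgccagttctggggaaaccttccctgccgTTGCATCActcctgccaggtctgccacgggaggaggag
Nupr1 (chr7:126625543-126625610, minus strand, motif on the other strand): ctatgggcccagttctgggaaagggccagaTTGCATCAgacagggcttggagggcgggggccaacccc
Atf3 (chr1:191183406-191183473, minus strand, motif on the other strand): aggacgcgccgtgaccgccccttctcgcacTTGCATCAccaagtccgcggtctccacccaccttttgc
Herpud1 (chr8:94386287-94386354, plus strand, motif on the other strand): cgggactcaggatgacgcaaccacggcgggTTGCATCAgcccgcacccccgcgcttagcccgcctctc

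LPS raised both arms at the mRNA level. In LPS cells against solvent cells, 19 of the 37 genes rose and 1 fell at an adjusted p under 0.05, by edgeR's quasi-likelihood test with Benjamini-Hochberg adjustment over the 16988 genes. That is 51.4% higher, against 8.40% higher and 8.09% lower among all genes tested. The ATF4 arm had 12 genes higher and 1 lower of 20, with a median log2 fold change of 0.77, and the chaperone arm 7 higher and 0 lower of 14, with a median of 0.88, while the median of all genes was -0.02. None of the 3 sensors passed the test, none had an unadjusted p under 0.05, and DESeq2 called none.

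Atf4 itself, the transcription factor of the amino acid arm at chr15:80255184-80257541, had 648, 643 and 590 CPM in LPS replicates 1, 2 and 3, against 298, 303 and 261 CPM in solvent replicates 1, 2 and 3. Every LPS library lay above every solvent library, and the fold was 2.18 (log2 1.13 ± 0.15 SE, n = 3 per group, edgeR adjusted p = 1.82e-07). Its level per length was 354 ± 18.3 FPKM in LPS cells and 164 ± 12.9 FPKM in solvent cells (SD, n = 3 each), which makes it the most abundant of the ATF4 arm mRNAs in both groups. Larger folds were found in genes at low levels. Sesn2, a stress-induced inhibitor of mTORC1, had 53.2, 57.3 and 63.5 CPM in LPS cells, against 3.40, 9.89 and 15.9 CPM in solvent cells, a fold of 5.93 (log2 2.57 ± 0.39 SE, n = 3 per group, edgeR adjusted p = 1.57e-06). Nupr1, a small chromatin-associated stress protein, rose 4.51-fold and Trib3, a pseudokinase that feeds back on ATF4, rose 4.04-fold.

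Smaller rises among the regulators were those of Chac1, which degrades glutathione, by a log2 of 1.05 ± 0.34 (SE), Ppp1r15a, the eIF2 phosphatase subunit that ends the response, by 0.78 ± 0.23, and Cebpg, a C/EBP partner of ATF4, by 0.70 ± 0.19 (n = 3 per group). Ddit3, which encodes the death-linked factor CHOP, had 46.1, 32.5 and 45.2 CPM in LPS cells, against 25.1, 35.5 and 46.1 CPM in solvent cells. These ranges overlap, and the log2 fold change was 0.21 with a 95% confidence interval of -0.33 to 0.76. Ddit4, another mTORC1 inhibitor, had 0 to 17 counts per library in LPS cells and 4 to 15 in solvent cells, too few for a fold. Atf3, an ATF4 target that is also known as an early brake on inflammatory genes, went the other way at 12 h. It had 158, 152 and 194 CPM in LPS cells, against 301, 282 and 287 CPM in solvent cells, a log2 change of -0.79 ± 0.28 (SE, n = 3 per group, edgeR adjusted p = 0.047).

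The calls of Atf3 and Chac1 are the least stable of these. Atf3 lost its call without any 1 of the 6 libraries compared, and its adjusted p ran from 5.86e-06 to 0.147 over 13 alternatives. Chac1 lost it without solvent replicate 2 or 3 or LPS replicate 1 (adjusted p 0.0107 to 0.205 over 13 alternatives), Cebpg without solvent replicate 3 (0.00449 to 0.107) and Ppp1r15a without solvent replicate 2 (0.00122 to 0.0785).

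Among the 10 genes of amino acid supply, 5 rose and 0 fell. Asns, asparagine synthetase, a standard readout of ATF4 whose start region is printed above, had 551, 595 and 583 CPM in LPS cells, against 194, 178 and 205 CPM in solvent cells. The groups lay far apart, with a fold of 2.99 (log2 1.58 ± 0.13 SE, n = 3 per group, edgeR adjusted p = 3.90e-13). Psph, the last enzyme of serine synthesis, rose 2.94-fold, and Mthfd2, which carries serine-derived carbon through the mitochondrial folate cycle, rose 1.76-fold. Slc7a5 and Slc3a2, the light and heavy chains of the large neutral amino acid transporter, rose 1.96-fold and 1.69-fold. The earlier enzymes of the same serine route did not pass. Phgdh, the first enzyme, differed by a log2 of -0.01 (95% confidence interval -0.51 to 0.49) and Psat1, the second, by 0.23 (-0.06 to 0.51). Shmt2, mitochondrial serine hydroxymethyltransferase, differed by 0.14 (-0.19 to 0.47), and the proline enzymes Aldh18a1 and Pycr1 by 0.12 and 0.25. All 3 LPS libraries of Psat1, at 717 to 739 CPM, still lay above the 3 solvent libraries, at 591 to 681 CPM. Psph shares 452 of its 4329 exon bases with a Cct6a transcript on the opposite strand, and without a known strand setting those reads cannot be told apart.

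In the chaperone arm, Hspa5 was by far the most abundant of the 37 mRNAs per length, at 930 FPKM in LPS cells and 352 FPKM in solvent cells. It encodes BiP, the main Hsp70 chaperone of the endoplasmic reticulum. Its libraries had 4008, 4100 and 4026 CPM in LPS cells, against 1600, 1454 and 1480 CPM in solvent cells, a fold of 2.68 (log2 1.42 ± 0.10 SE, n = 3 per group, edgeR adjusted p = 3.42e-15). Both groups were tight and did not overlap. Manf, a secreted protein that binds BiP, had 289, 305 and 245 CPM in LPS cells, against 103, 101 and 104 CPM in solvent cells, a fold of 2.72. Dnajb9 and Dnajb11, J-domain partners of BiP, rose 2.29-fold and 1.82-fold. Hsp90b1, the Hsp90 of the compartment, rose 1.85-fold, Pdia6, a disulfide isomerase, 1.92-fold, and Sel1l, the scaffold of the degradation complex, 1.68-fold. Manf shares 166 of its 3524 exon bases with an antisense transcript and 146 with Dcaf1 on the opposite strand. Hsp90b1 shares 415 of its 4032 with a pseudogene on the opposite strand. Outside this arm, Eif2ak3 shares 485 of its 6026 with an opposite-strand transcript. Ddit3 shares 68 of its 1713 with Mars on the opposite strand and 105 with a second entry of its symbol on the same strand.

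Of the 7 chaperone arm genes not called, 6 had positive estimates. Herpud1, a membrane factor of degradation, had 33.8, 35.2 and 28.7 CPM in LPS cells, against 20.05, 12.1 and 15.9 CPM in solvent cells, without overlap, at a log2 fold change of 1.03 ± 0.39 (SE, edgeR adjusted p = 0.069). Creld2, a stress-induced protein of the compartment, had a log2 estimate of 1.03 and Pdia4, another isomerase, of 0.59, and Dnajc3, Sdf2l1 and Xbp1 had estimates of 0.53, 0.46 and 0.50. Edem1, which draws misfolded glycoproteins to degradation, had the negative one, with 141, 128 and 133 CPM in LPS cells, against 168, 171 and 204 CPM in solvent cells, at -0.43 (95% confidence interval -0.84 to -0.03, adjusted p = 0.163). Dnajb11 was the least stable call of the arm. It was lost in 9 of 13 alternatives, among them without any 1 solvent library or without LPS replicate 1 or 2, with an adjusted p of 0.0187 to 0.162.

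The sensors stood at low or middling levels. Eif2ak3, which encodes PERK, had 2.03 FPKM in LPS cells and 1.47 FPKM in solvent cells, Ern1, which encodes IRE1, had 2.28 and 1.13 FPKM, and Atf6 had 20.9 and 19.6 FPKM. Atf6 had the narrowest interval, with a log2 fold change of 0.10 (95% confidence interval -0.17 to 0.37). Ern1 had 4.55, 32.0 and 20.8 CPM in LPS cells, against 5.44, 11.1 and 11.7 CPM in solvent cells, so that its LPS libraries spread on both sides of the solvent range.

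**Figure D1:**
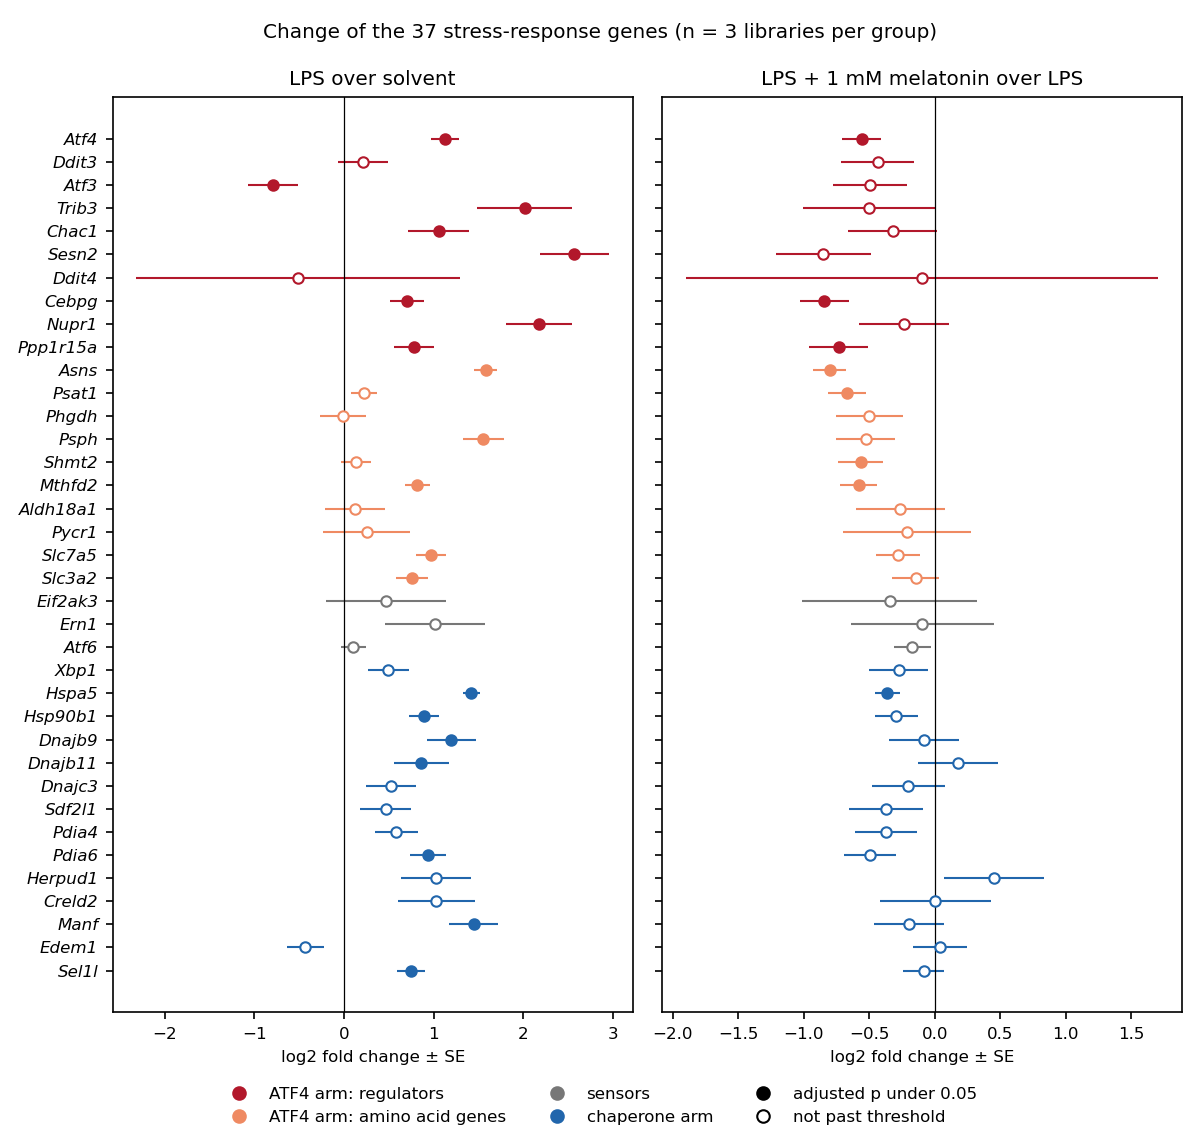
Log2 fold change (x axis, bars ± SE) of each of the 37 genes (y axis, coloured by role) in LPS over solvent cells (left) and in LPS with 1 mM melatonin over LPS cells (right), n = 3 libraries per group, filled where the adjusted p is under 0.05. On the left, 19 filled points lie right of 0 and 1 left, and on the right 8 filled points lie left of 0, 7 of them in the ATF4 arm.

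The LPS response was then read at each melatonin dose, as LPS with melatonin against melatonin alone. Together with LPS against solvent this gives 6 comparisons that share no library. At 0.1 µM, 22 of the 37 rose and 0 fell, against 7.95% higher and 7.71% lower among all genes. At 1 µM, 22 rose and 1 fell, against 7.98% higher and 7.40% lower. At 10 µM, 20 rose and 1 fell (8.44% and 7.65% of all genes), and at 100 µM 22 rose and 1 fell (9.06% and 7.72%). Of the 37 genes, 15 were higher in all 6, against 2.71% of the genes tested. They were Atf4, Trib3, Sesn2, Nupr1, Asns, Psph, Mthfd2, Slc7a5 and Slc3a2 of the ATF4 arm and Hspa5, Hsp90b1, Dnajb9, Pdia6, Manf and Sel1l of the chaperone arm. Hspa5 had log2 fold changes of 1.25 to 1.53, Slc3a2 of 0.76 to 0.95 and Sel1l of 0.50 to 0.78, while Psph ran from 0.82 to 1.92. Without the 2 libraries in doubt, 14 of the 37 were higher in all 6, against 2.67% of the genes tested, with Psph no longer among them, and at 1 µM 24 rose and 1 fell, against 6.54% higher and 5.87% lower among all genes. With all libraries, Herpud1 and Creld2 were higher in 5 of the 6, with ranges of 1.03 to 2.83 and 1.03 to 2.02. Each missed the test in LPS against solvent, and Creld2 lost its call at 1 µM without the 2 libraries in doubt. Psat1 was higher in 4. Atf3 was lower in 5, with a range of -1.72 to -0.35. Phgdh, Xbp1, Edem1, Eif2ak3, Ern1 and Ddit4 passed in none of the 6. In 9 of the 37 genes all 18 LPS libraries lay above all 18 libraries without LPS, against 1.95% of the genes tested. Hspa5 was one of them, with 2973 to 4100 CPM in the libraries with LPS and 919 to 1600 CPM in those without.

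**Figure D2:**
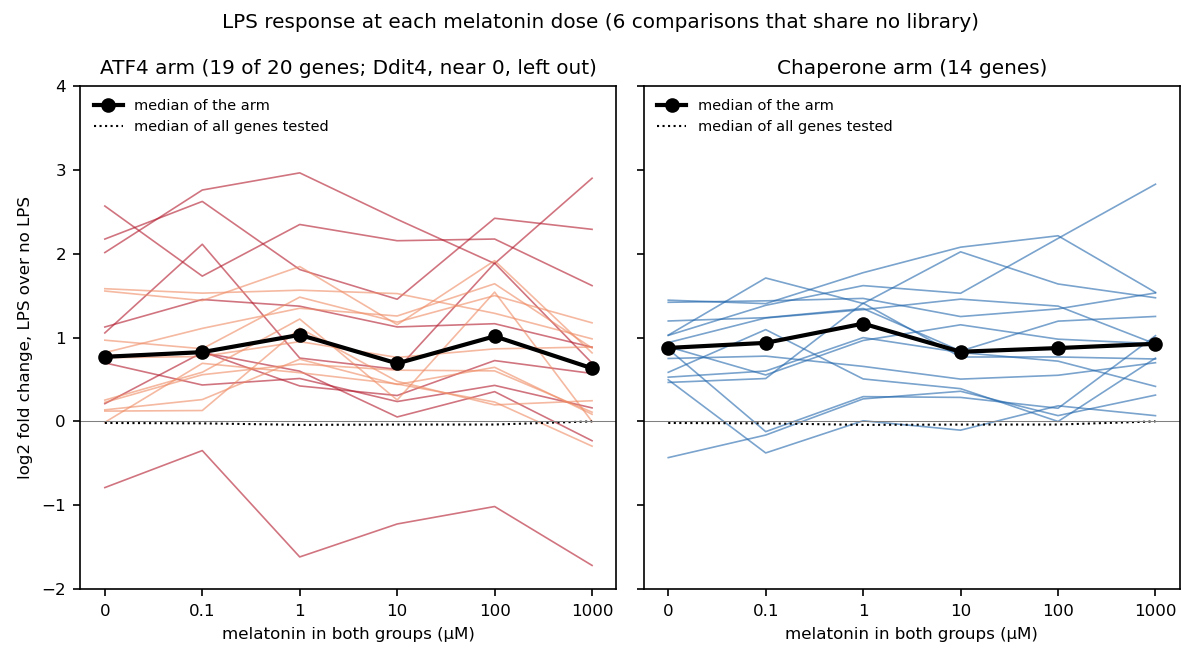
Log2 fold change of LPS over no LPS (y axis) at each melatonin dose in µM (x axis, 0 is LPS over solvent), with 1 coloured line per gene of the ATF4 arm (left, Ddit4 not drawn but counted in the median) and of the chaperone arm (right), n = 3 libraries per group. The black line, the median of each arm, stays above the dotted line, the median of all genes, at all 6 doses, and the ATF4 arm is at 0.63 at 1 mM.

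The highest dose of melatonin lowered part of the ATF4 arm in LPS cells. In LPS with 1 mM melatonin against LPS, 8 of the 37 genes fell and 0 rose (edgeR, Benjamini-Hochberg over all genes), or 21.6% lower, against 4.71% lower and 2.84% higher among all genes tested. Of these, 7 of 20 were in the ATF4 arm and 1 of 14, Hspa5, in the chaperone arm. All 20 ATF4 arm estimates were negative, with a median log2 change of -0.50, against 10 of 14 in the chaperone arm, with a median of -0.20. The median of all genes was 0.02.

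Asns had 311, 336 and 343 CPM in LPS with 1 mM melatonin, against 551, 595 and 583 CPM in LPS cells, a log2 change of -0.80 ± 0.13 (SE, n = 3 per group, edgeR adjusted p = 1.24e-05). The groups did not overlap, and the call held in all 13 alternatives, with an adjusted p of 1.71e-11 to 0.0172. Psat1 had 503, 523 and 346 CPM in LPS with 1 mM melatonin, against 732, 739 and 717 CPM in LPS cells, a log2 change of -0.67 ± 0.14 (adjusted p = 0.00146). Replicate 3 was the lowest of the 3, and all 3 lay below the LPS libraries. Mthfd2 fell to 350, 280 and 274 CPM in LPS with 1 mM melatonin, against 467, 429 and 457 CPM in LPS cells (log2 -0.58 ± 0.14 SE, adjusted p = 0.00412). Shmt2 fell by 0.57 on the log2 scale, Cebpg by 0.84 and Ppp1r15a by 0.73. The calls of Asns, Psat1, Mthfd2 and Cebpg held without any 1 library. That of Shmt2 was lost without LPS replicate 2 or 3 or without replicate 2 or 3 of LPS with 1 mM melatonin (adjusted p 0.0015 to 0.191 over 13 alternatives), and that of Ppp1r15a without LPS replicate 2 or 3 or without replicate 1 or 2 of LPS with 1 mM melatonin (0.0053 to 0.212). Psat1 and Shmt2 are among the genes that LPS alone did not raise past the test. The genes called lower with 1 mM melatonin were therefore not all among those called higher in LPS against solvent. Over the 6 LPS comparisons above, Psat1 was called higher in 4 and Shmt2 in 2. Their log2 estimates there were 0.11 to 0.68 and 0.08 to 0.74.

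Atf4 had 366, 298 and 614 CPM in LPS with 1 mM melatonin, against 648, 643 and 590 CPM in LPS cells. Replicates 1 and 2 lay well below the LPS libraries and replicate 3 lay within their range, so the mean change of -0.56 ± 0.15 on the log2 scale (edgeR adjusted p = 0.013) describes no single library. Its call was lost without LPS replicate 1 or without replicate 1 or 2 of LPS with 1 mM melatonin, and its adjusted p ran from 8.11e-07 to 0.279 over 13 alternatives. Dnajb11 and Herpud1 showed the same replicate apart, at 98.4 and 74.0 CPM in replicate 3, against 35.7 and 32.7 CPM and 35.2 and 24.7 CPM in replicates 1 and 2. The Sesn2, Trib3, Psph and Phgdh estimates were -0.85, -0.50, -0.53 and -0.50, none past the test. Slc3a2 and Slc7a5 were at -0.15 and -0.28, with 95% confidence intervals of -0.50 to 0.20 and -0.61 to 0.05.

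Hspa5 had 3173, 3285 and 2973 CPM in LPS with 1 mM melatonin, against 4008, 4100 and 4026 CPM in LPS cells, a log2 change of -0.36 ± 0.10 (SE, n = 3 per group, edgeR adjusted p = 0.0113). The groups did not overlap, and the call was lost without LPS replicate 2 (adjusted p 0.000222 to 0.447 over 13 alternatives). The other chaperone arm genes ranged from -0.50 (Pdia6) to 0.45 (Herpud1) on the log2 scale, and none passed the test. Sel1l, at -0.09 (95% confidence interval -0.39 to 0.22), and Dnajb9, at -0.09 (-0.61 to 0.44), differed least among the genes that LPS raised.

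The summed level of the macrophage markers moved with this comparison, at 3354 to 4491 CPM in LPS with 1 mM melatonin, against 13183 to 13363 CPM in LPS cells. The largest parts of the sum were Lyz2, Csf1r and Cd14. Lyz2 had a mean of 1388 CPM in LPS with 1 mM melatonin and 8250 CPM in LPS cells. In the same order, Csf1r had 1219 and 1542 CPM and Cd14 had 660 and 2314 CPM. Itgam (55.7 and 225 CPM), Fcgr1 (69.7 and 204 CPM), Ptprc (155 and 281 CPM) and Adgre1 (8.73 and 35.8 CPM) were lower with melatonin too. Means of Cd68 (226 CPM in LPS with 1 mM melatonin, 214 CPM in LPS cells) and Spi1 (227 CPM in LPS with 1 mM melatonin, 198 CPM in LPS cells) were not lower with melatonin. The part of these markers in the result was not tested. Without scaling for library composition, the median of all genes moves by 0.24 on the log2 scale, and the calls fall to 3 of 37, while the fit to the libraries of these groups alone leaves 1, Asns.

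The next lower dose was compared too, which leaves out the libraries with LPS alone but uses the same 3 libraries of LPS with 1 mM melatonin, replicate 3 included, so the 2 comparisons are not independent. At 1 mM against 100 µM melatonin, both with LPS, 5 of the 37 genes fell and 0 rose, or 5 of 20 in the ATF4 arm and 0 of 14 in the chaperone arm, against 3.77% lower and 1.16% higher among all genes. Mthfd2 changed most, with 350, 280 and 274 CPM at 1 mM, against 594, 587 and 523 CPM at 100 µM (log2 -0.91 ± 0.14 SE, n = 3 per group, edgeR adjusted p = 1.54e-05). Psat1 fell by 0.77, Psph by 0.77, Shmt2 by 0.73 and Slc7a5 by 0.55 on the log2 scale, and all 5 genes had their 3 libraries at 1 mM below the 3 at 100 µM. Hspa5 had a log2 difference of 0.00 (95% confidence interval -0.19 to 0.19). The Asns estimate was -0.34 (-0.59 to -0.10, adjusted p = 0.119) and that of Atf4 -0.32 (-0.62 to -0.03). No chaperone arm gene passed by edgeR as fitted here or by DESeq2, and 3 had an unadjusted p under 0.05. Of these, Manf (-0.74) passed with no filter on low counts and without the 2 libraries in doubt, and Hsp90b1 (-0.43) passed in both of these and, at -0.59, without replicate 1 at 1 mM. The summed macrophage markers were at 3354 to 4491 CPM at 1 mM, against 10869 to 11644 CPM at 100 µM, and their part in the result was not tested.

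The weakest calls of this comparison were Slc7a5, lost without replicate 2 or 3 at 1 mM or any replicate at 100 µM, Psph, lost without replicate 2 at 1 mM or replicate 2 or 3 at 100 µM, and Shmt2, lost without replicate 3 at 1 mM. Atf4 passed, at -0.68, without replicate 3 at 1 mM. The count was 3 with no scaling factors, 1 in the fit to these groups alone, 8 without the 2 libraries in doubt, which belong to neither group (Cebpg, Hsp90b1 and Manf gained, against 4.19% lower among all genes), and 3 to 7 with 1 library left out.

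**Figure D3:**
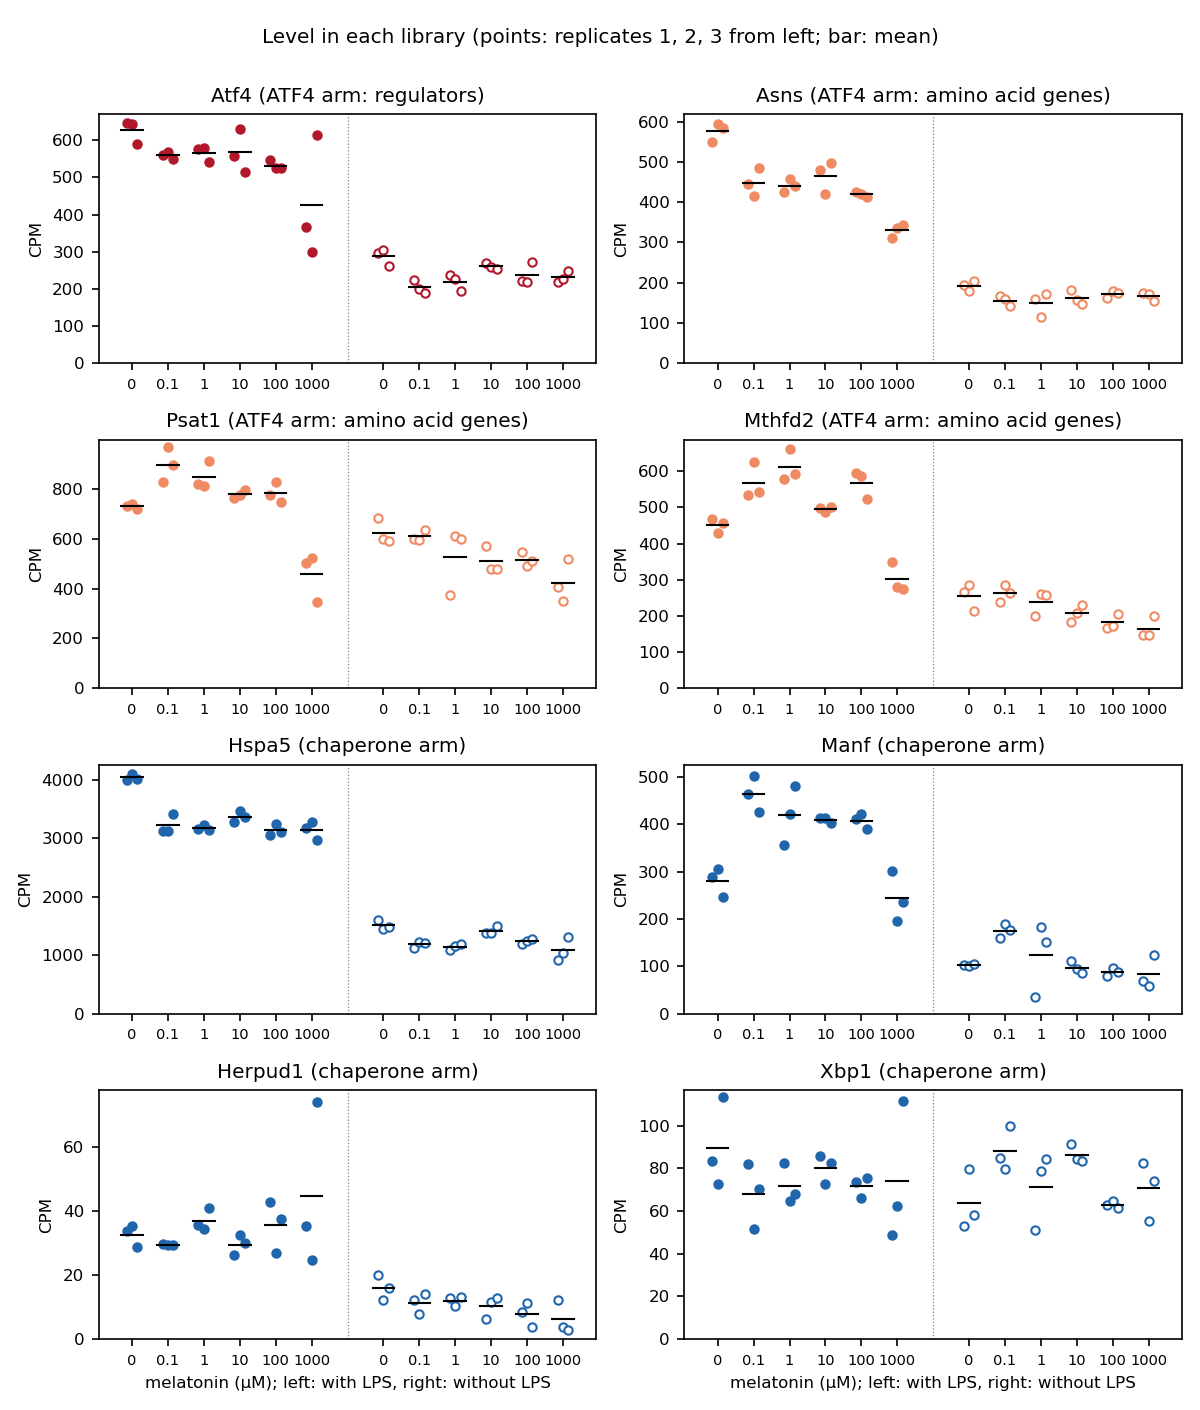
CPM (y axis, linear from 0) of 8 of the genes in each library by melatonin dose in µM (x axis), with LPS on the left and without on the right, points for replicates 1, 2 and 3 from left to right and a bar for the mean. Psat1 and Mthfd2 are low at 1 mM with LPS, at 346 to 523 and 274 to 350 CPM, whereas Hspa5 with LPS is at about the same level at all 5 melatonin doses.

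Across the lower doses with LPS the genes followed more than 1 pattern, and these comparisons share the LPS libraries. Hspa5 averaged 3227, 3178, 3375, 3144 and 3144 CPM at 0.1, 1, 10, 100 and 1000 µM melatonin with LPS, each below the 4045 CPM of LPS cells. These means have no order by dose. Of the 4 lower doses only 100 µM passed, with a log2 change of -0.36 ± 0.10 (edgeR adjusted p = 0.0449), while DESeq2 called 0.1, 1 and 100 µM. Asns averaged 448, 441, 466, 419 and 330 CPM over the same doses, below the 576 CPM of LPS cells at each, and DESeq2 again called 0.1, 1 and 100 µM where edgeR called none (adjusted p = 0.158, 0.157, 0.416 and 0.054 at 0.1, 1, 10 and 100 µM). Psat1 averaged 896, 848, 778, 782 and 457 CPM, against 729 CPM in LPS cells, and Shmt2 607, 619, 563, 556 and 335 CPM, against 497 CPM. For both genes the means at the 4 lower doses were above that of LPS cells and the mean at 1 mM was below it. Mthfd2 and Slc7a5 had the same shape, at 495 to 610 CPM and 226 to 272 CPM in the 4 lower doses, against 451 and 187 CPM in LPS cells. With all libraries, neither passed the test at any of these doses. Atf3 averaged 113, 106, 108 and 94.4 CPM at 0.1, 1, 10 and 100 µM, against 168 CPM in LPS cells. Manf was read as log2(mean CPM + 1) minus the mean of the 12 groups. It was at 1.23, 1.08, 1.05 and 1.04 at these doses, against 0.50 in LPS cells. Atf3 and Manf did not pass at these doses with all libraries either. The 1 call of 148 gene and dose pairs stands beside 1.36%, 0.612%, 0.371% and 1.18% of all genes in either direction at 0.1, 1, 10 and 100 µM. The count depends on the fit, with 25 calls (10 higher, 15 lower) in the groups alone, 13 (5 higher, 8 lower) without the 2 libraries in doubt, which belong to none of these groups, 6 by DESeq2 and 0 with any 1 library of these groups left out. Without the 2 libraries, the shares of all genes were 1.97%, 1.30%, 0.747% and 1.92% at 0.1, 1, 10 and 100 µM. Among the 13 calls of that fit, Manf was higher and Atf3 lower at all 4 doses, and Slc7a5 was higher at 1 µM. Hspa5 was lower at 0.1, 1 and 100 µM and Asns at 100 µM. For the groups alone no share of all genes is at hand, so the 25 calls cannot be set against one.

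**Figure D4:**
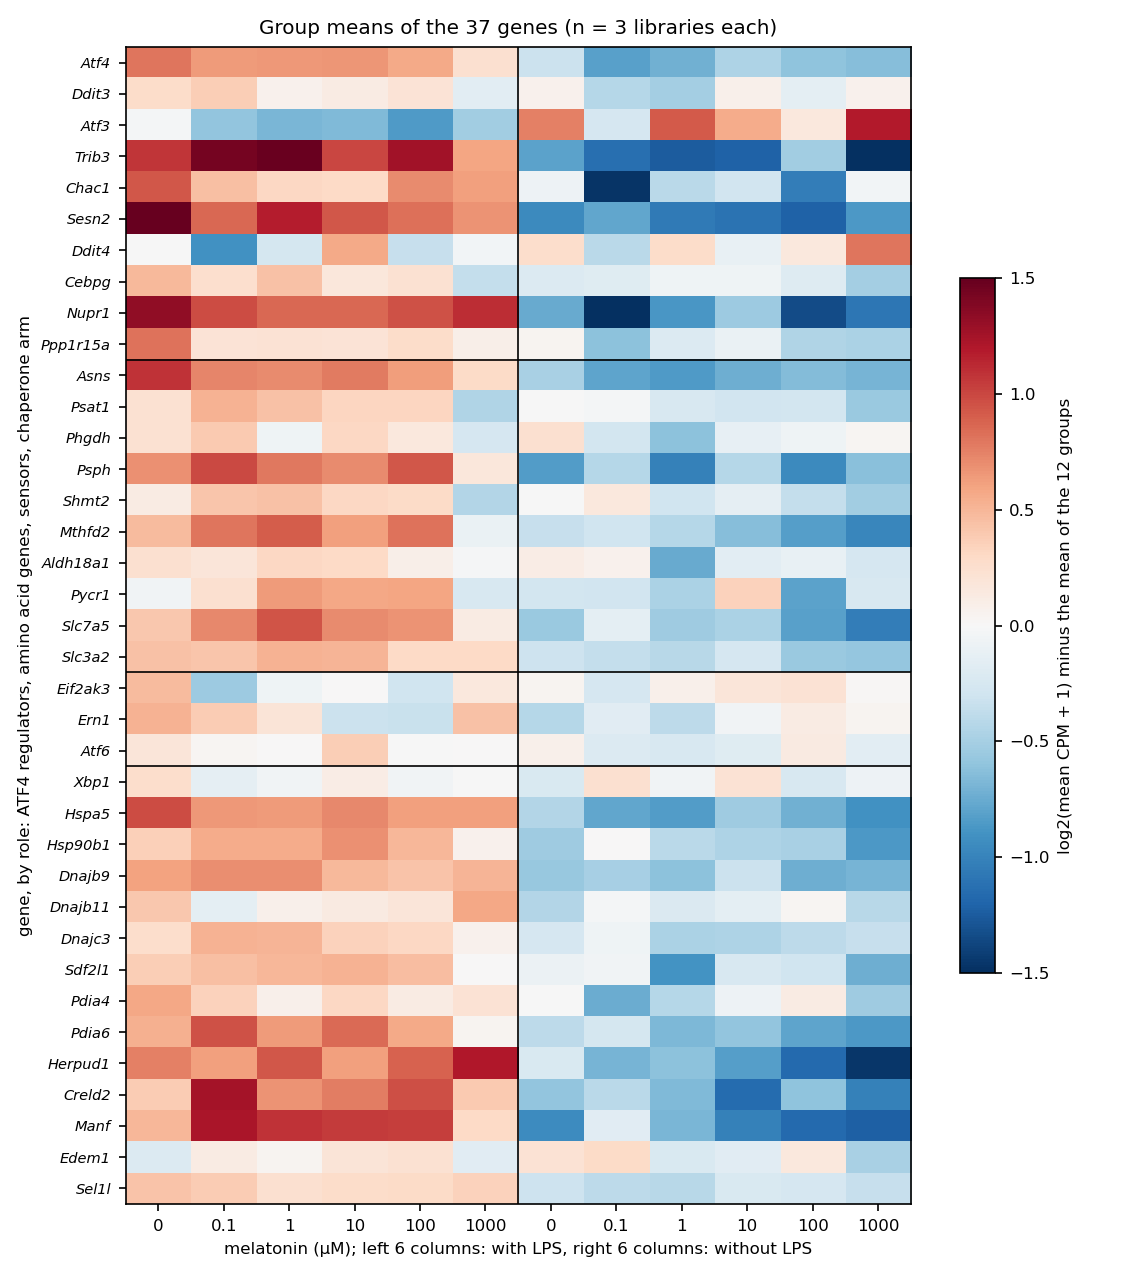
Log2(mean CPM + 1) of the 37 genes (rows, by role) in each of the 12 groups, minus the mean of the 12 groups (colour scale cut at -1.5 and 1.5), with melatonin dose in µM on the x axis, LPS groups in the left 6 columns and groups without LPS in the right 6. Most genes are higher across the left columns and Atf3 is mostly lower there. Among the LPS columns, that of 1 mM melatonin is the lowest in the amino acid genes, by little in Slc3a2. In that column Psat1 is at -0.45 and Shmt2 at -0.44.

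Without LPS, 1 mM melatonin lowered 2 of the 37 genes and raised 0, against 0.418% of all genes in either direction. They were Hspa5, with 919, 1032 and 1311 CPM in 1 mM melatonin, against 1600, 1454 and 1480 CPM in solvent (log2 -0.48 ± 0.10 SE, n = 3 per group, edgeR adjusted p = 0.0109), and Mthfd2, with 147, 146 and 199 CPM, against 268, 287 and 212 CPM (log2 -0.64 ± 0.14 SE, adjusted p = 0.0196). In both genes the library labelled 1 mM melatonin replicate 3, one of the 2 in doubt, lay nearest to solvent. Without the 2 libraries, 11 of the 37 genes passed, against 2.64% of all genes in either direction in the same fit. Psat1 at -0.72, Shmt2 at -0.63, Trib3 at -2.16, Hsp90b1 at -0.56, Sdf2l1 at -1.11, Pdia4 at -0.97, Manf at -0.69 and Edem1 at -1.03 (log2) were then lower beside Hspa5 and Mthfd2, and Atf3 was higher at 0.82. Atf3 had 478 and 545 CPM in replicates 1 and 2 of 1 mM melatonin and 154 CPM in replicate 3, against 301, 282 and 287 CPM in solvent. The summed macrophage markers were at 4969 to 11822 CPM in 1 mM melatonin, against 12753 to 13452 CPM in solvent, and their part in the result was not tested. The fit to these groups alone called 0 of the 37, and leaving out any 1 library gave 0 to 6. Both calls were lost without solvent replicate 1 or without 1 mM melatonin replicate 1 or 2, Mthfd2 also without solvent replicate 2 and Hspa5 also without solvent replicate 3.

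At the 4 lower doses without LPS, 1 of 148 gene and dose pairs passed, Chac1 at 0.1 µM, with 5.76, 4.02 and 4.86 CPM, against 17.0, 14.1 and 12.1 CPM in solvent (log2 -1.56 ± 0.36 SE, n = 3 per group, edgeR adjusted p = 0.0384). The share of all genes called in either direction was 0.341%, 0.147%, 0.0824% and 0.0824% at 0.1, 1, 10 and 100 µM. DESeq2 gave no adjusted p for Chac1 here and called 5 other pairs, leaving out 1 library gave 0 to 4 calls, and 9 (3 higher, 6 lower) passed without the 2 libraries in doubt. The shares of all genes in that fit were 0.845%, 0.501%, 0.234% and 0.131% at 0.1, 1, 10 and 100 µM. Beside Chac1, Atf3 was then lower at 0.1, 1 and 100 µM and Hspa5 at 0.1 and 1 µM. Manf was higher at 0.1 and 1 µM and Hsp90b1 at 0.1 µM.

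LPS still raised both arms in cells with 1 mM melatonin. In LPS with 1 mM melatonin against 1 mM melatonin alone, 19 of the 37 rose and 1, Atf3, fell, against 4.87% higher and 4.75% lower among all genes. The ATF4 arm had 9 higher of 20 and the chaperone arm 10 of 14. Asns rose 1.98-fold (log2 0.98 ± 0.13 SE) and Hspa5 2.89-fold (1.53 ± 0.10 SE, n = 3 per group, edgeR adjusted p = 1.67e-07 and 1.09e-15). Herpud1 had 35.2, 24.7 and 74.0 CPM in LPS with 1 mM melatonin, against 12.0, 3.81 and 2.87 CPM in 1 mM melatonin alone, a fold of 7.10 (log2 2.83 ± 0.42 SE, adjusted p = 2.97e-06). The groups did not overlap, and replicate 1 was the highest of the melatonin libraries. Atf3 had 104, 136 and 117 CPM, against 478, 545 and 154 CPM, a log2 change of -1.72 ± 0.29. The calls of Psph, Dnajb11, Pdia4 and Creld2 depended on single libraries. Psph was lost without replicate 2 or 3 of 1 mM melatonin or replicate 1 or 3 of the LPS group, Dnajb11 without replicate 1 or 2 of 1 mM melatonin or replicate 3 of the LPS group, Pdia4 without replicate 1 or 2 of 1 mM melatonin or replicate 2 or 3 of the LPS group, and Creld2 without replicate 1 or 2 of 1 mM melatonin or replicate 1 or 3 of the LPS group. Without the 2 libraries in doubt, 20 rose and 1 fell, against 4.64% higher and 3.65% lower among all genes, with Sdf2l1 and Edem1 gained and Psph lost. The fit to these groups alone called 13.

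Whether 1 mM melatonin changed the LPS response itself was tested as the interaction, LPS with 1 mM melatonin minus 1 mM melatonin minus the difference of LPS and solvent. None of the 37 genes passed by edgeR, against 1.69% of all genes in either direction, and 5 had an unadjusted p under 0.05. DESeq2 called 1, Asns, where edgeR gave -0.60 on the log2 scale (95% confidence interval -0.95 to -0.25, adjusted p = 0.0739). Herpud1 had the largest positive estimate, 1.80 (0.70 to 2.90, adjusted p = 0.0979). Hspa5 was at 0.11 (-0.16 to 0.38). The ATF4 arm had 14 of 20 negative estimates, with a median of -0.25, and the chaperone arm 10 of 14 positive, with a median of 0.10, against 0.02 for all genes. Without the 2 libraries in doubt 3 passed, against 2.23% of all genes, Atf3 at -1.31, Asns at -0.65 and Edem1 at 1.07, of which Atf3 and Edem1 also passed without 1 mM melatonin replicate 3 alone. Atf4 passed, at -0.60, only without replicate 3 of LPS with 1 mM melatonin, and Herpud1 without 1 mM melatonin replicate 1 or without replicate 2 of LPS with 1 mM melatonin.

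The rest of each pathway was read from 2 wider lists that hold none of the 37 genes. These lists were chosen with earlier results of these data known. Of the alternatives, DESeq2 alone is given for them, in LPS with 1 mM melatonin against LPS. In that comparison the 8 calls among the 37 genes fell to 3 without scaling factors and to 1 in the groups alone. Of the wider ATF4 and amino acid list, 43 of 47 genes were tested. In LPS against solvent, 18 rose and 1 fell, or 41.9% higher, against 8.40% among all genes. They included Slc7a11, the cystine importer, with 898 ± 57.9 CPM in LPS cells and 39.3 ± 9.14 CPM in solvent cells (SD, n = 3 each), the charging enzymes Nars (478 ± 46.3 and 162 ± 17.2 CPM) and Sars (860 ± 35.2 and 384 ± 32.2 CPM), and the repressor Jdp2 (215 ± 11.6 and 44.0 ± 9.21 CPM). In LPS with 1 mM melatonin against LPS, 13 fell and 0 rose, or 30.2% lower, against 4.71% among all genes. DESeq2 called 14 lower and 0 higher, against 989 lower and 658 higher of the 16988 genes. Slc7a11 fell to 188 ± 31.5 CPM, a log2 change of -2.26 ± 0.19 (SE), Cth, which makes cysteine, to 18.2 ± 3.16 CPM, against 91.0 ± 5.54 CPM in LPS cells, Nars to 259 ± 25.0 CPM and Sars to 473 ± 89.0 CPM. In the interaction Slc7a11 (-1.21 ± 0.28, edgeR adjusted p = 0.01) and Sars (-0.67 ± 0.17, adjusted p = 0.0241) passed, both lower, 2 of 43 or 4.65%, against 1.69% of all genes. Slc7a11 is also a known target of NRF2, the oxidative stress factor.

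Of the wider endoplasmic reticulum list, 58 of 60 genes were tested. In LPS against solvent, 25 rose and 0 fell, or 43.1% higher, against 8.40% among all genes. Sec24d, with 55.8 ± 7.52 CPM in LPS cells and 7.55 ± 2.56 CPM in solvent cells, and Sec23b (141 ± 19.9 and 62.8 ± 3.96 CPM) form the coat of vesicles leaving the compartment, Surf4 (202 ± 7.05 and 80.9 ± 19.2 CPM) is a cargo receptor and Hspa13 (91.6 ± 18.4 and 26.3 ± 9.51 CPM) an Hsp70 relative. In LPS with 1 mM melatonin against LPS, 7 fell and 0 rose, or 12.1%, beside 30.2% of the wider ATF4 list and 4.71% of all genes. DESeq2 called 9 lower and 2 higher. The oxidase Ero1l fell by 1.02 on the log2 scale, with 98.9 ± 12.3 CPM in LPS with 1 mM melatonin and 200.1 ± 18.3 CPM in LPS cells (SD, n = 3 each), and the chaperone Canx by 0.49, the isomerase P4hb by 0.39 and the signal peptidase subunit Spcs3 by 0.58. Ero1l was the 1 gene of this list to pass in the interaction, 1.72% of 58, against 1.69% of all genes (-0.85 ± 0.22 SE, edgeR adjusted p = 0.0301). Ero1l is known as a target of CHOP and of hypoxia signalling as well.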

How the data were processed

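RNA was sequenced in 36 libraries, 3 per group, and replicates were numbered as in the labels. The counts per gene are the authors' deposited whole-number values, and the deposited FPKM values, used only for levels per length, are the authors' own. Per the submitters' processing notes, cutadapt, featureCounts and the mm10 build were used. Their versions, the aligner and the strand setting are not given in the sources used here. Totals ran from 4203313 to 7590271 counts per library, and the limit given for 0 counts covers counting error only. Confidence intervals come from the fit and include the spread between libraries.

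One model with a mean for each of the 12 groups was fitted to the counts with edgeR 4.0.16 (R 4.3.3, limma 3.58.1), after filterByExpr, with TMM factors, the quasi-likelihood test and Benjamini-Hochberg adjustment over 16988 genes at 0.05. CPM are counts scaled by total and TMM factor, and SE is the log2 fold change divided by the square root of F. The alternatives were DESeq2 1.42.0, RLE or no scaling factors, no filter, the replicate block, the compared groups alone, each library left out, and leaving out the 2 libraries in doubt. The code was tested on simulated data. The 37 members and all lists were chosen with earlier results of these data known. The wider-list genes named are the 4 of each list with the smallest adjusted p in a comparison. Promoters are RefSeq windows, matched by symbol. Mitochondrially encoded genes were not analysed.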

Additional observations from a re-analysis of the deposited data

How the results depend on the processing

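In the 6 comparisons tested singly, no gene called in the analysis or in an alternative changed sign between them. LPS against solvent gave 18 to 23 calls of 37 under the alternatives that do not leave out a single library (Pdia4, Herpud1, Creld2 and Edem1 gained, Atf3, Chac1 and Dnajb11 lost in 1 or more), and 16 to 19 with 1 library left out, against 20. For LPS with 1 mM melatonin against LPS, the 8 calls became 3 with no scaling factors and 1 in the groups alone, and 5 to 7 with 1 library left out. At 1 mM against 100 µM melatonin, both with LPS, the 5 became 3, 1 and, without the 2 libraries in doubt, 8, and 3 to 7 with 1 library left out. For 1 mM melatonin against solvent, the 2 became 4 with no filter, 0 in the groups alone and 11 without the 2 libraries in doubt, and 0 to 6 with 1 library left out. LPS with 1 mM melatonin against 1 mM melatonin gave 13 in the groups alone and 16 to 20 with 1 library left out, against 20. The interaction gave 1 lower by DESeq2, 1 lower with no filter, 3 (1 higher, 2 lower) without the 2 libraries in doubt and 0 to 2, in both directions, with 1 library left out, against 0. Over the 4 lower doses with LPS, the 1 call became 6 by DESeq2, 2 with RLE factors, 4 (2 higher, 2 lower) with no filter, 25 (10 higher, 15 lower) in the groups alone and 13 (5 higher, 8 lower) without the 2 libraries in doubt, and 0 with any 1 library left out. Over the 4 lower doses without LPS, the 1 call became 5 by DESeq2, 3 (2 higher, 1 lower) with no filter, 8 (2 higher, 6 lower) in the groups alone and 9 (3 higher, 6 lower) without the 2 libraries in doubt, and 0 to 4 with 1 library left out. LPS against no LPS at the 4 lower doses gave 95 without the 2 libraries in doubt and 85 to 92 with 1 library left out, against 89. The cause of these shifts was not tested. For most alternatives the share of all genes in the same fit is not given. These counts therefore show only how the calls of the 37 genes move with the fit. Leaving out scaling factors moves the median of all genes by -0.10 in LPS against solvent, 0.24 in LPS with 1 mM melatonin against LPS, 0.21 in LPS with 1 mM against 100 µM and 0.16 in the interaction (log2).

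Same-numbered libraries were taken as pairs only where all 3 correlations of their deviations exceeded 0.1, which no comparison met. The nearest was 1 mM against 100 µM, both with LPS, at 0.104, 0.033 and 0.105, so the replicates were treated as sharing only a number. With the number as a replicate block, the counts were 18 in LPS against solvent (Atf3 and Dnajb11 lost, at adjusted p of 0.0508 and 0.0554), 8, 2 and 20 in the 3 comparisons with 1 mM melatonin against LPS, solvent and 1 mM melatonin, 5 against 100 µM, and 0 in the interaction. Genes at few counts, such as Ddit4, are limited by depth.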

Other observations

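The library labelled 1 µM melatonin replicate 1 stood apart in the members too. Psat1 had 374 CPM in it, against 609 and 600 CPM in replicates 2 and 3 of that label, Shmt2 216 CPM, against 442 and 453 CPM, and Manf 34.5 CPM, against 184 and 151 CPM. Atf3, the gene that LPS lowered, had 604 CPM in it, against 166 and 203 CPM. In 1 mM melatonin, Atf3 had 478, 545 and 154 CPM in replicates 1, 2 and 3, and Manf 68.4, 59.3 and 124 CPM.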
